A study of Caenorhabditis elegans with 10 samples.

Results

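The genes described here are 10 *C. elegans* cuticle collagens that give the worm its shape without belonging to the furrow group: the strut collagens *bli-1*, *bli-2* and *bli-6*, the Roller collagens *rol-6*, *sqt-1*, *sqt-2* and *sqt-3*, and the Dumpy collagens *dpy-5*, *dpy-13* and *dpy-17*. They were chosen by name from a table of 46903 genes, and all 10 passed the filter on low values, a 10-library average of 1 TPM or more, as did 14418 genes in all. TPM is a relative transcript abundance that is corrected for transcript length, so that levels can be compared between genes. As a share of each library's total, it compares libraries only relative to their other transcripts. RNA was sequenced from whole animals of 5 strains, with 2 biological replicates each. All of them carried the *Pacdh-1::GFP* transgene *wwIs24[Pacdh-1::GFP;unc-119(+)]*, in which the promoter of *acdh-1* drives the reporter, as well as the *nhr-10(tm4695)* deletion, which removes a nuclear hormone receptor gene. The mutants additionally carried a point mutation in an enzyme gene of the Met/SAM cycle, which was *mthf-1(ww50)*, *metr-1(ww52)*, *mtrr-1(ww56)* or *sams-1(ww51)*, and the parent strain carried none of these. Each mutant is a single allele from a chemical mutagenesis screen. All strains were maintained with 0.64 nM vitamin B12. They were synchronized by an L1 arrest of 18 hours and then grown for 48 hours on *E. coli* OP50 with 20 nM vitamin B12. The labels give the stage as L4, whereas the methods speak of late L4 to early young adults. The comparison asks which transcripts differ between Met/SAM cycle mutants and the parent when vitamin B12 is supplied.

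The cuticle is an extracellular coat that the epidermis secretes anew at each molt, and collagens are its main proteins. Collagen genes are switched on in waves within each molting cycle, and some are used at particular stages only. Struts are columns that join the inner and outer layers of the adult cuticle, and loss of a strut collagen produces fluid-filled blisters, hence the name *bli*. Mutations in Roller and Squat collagens twist the body along its axis or shorten it, and mutations in Dumpy collagens leave the animal short and stout. Furrow collagens, by contrast, form the circumferential bands of the cuticle surface.

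Of the 10 genes, 5 lie on chromosome II, 2 on chromosome IV and 1 each on chromosomes I, III and V of the WBcel235 annotation, which lists all of them as protein-coding. *bli-1* (II:10708960-10712156, plus strand) is the longest, with 3010 exonic bases against 855 to 1422 in the other 9 genes. *bli-2* spans II:5651394-5652434 (minus strand) and *bli-6* spans IV:6377065-6378168 (plus strand). The Roller genes are *rol-6* at II:8733050-8734239 (plus strand), *sqt-1* at II:11336693-11337837 (minus strand), *sqt-2* at II:23325-24458 (plus strand) and *sqt-3* at V:12352745-12354320 (plus strand). The Dumpy genes are *dpy-5* at I:5432197-5433051 (minus strand), *dpy-13* at IV:4235614-4236710 (plus strand) and *dpy-17* at III:5107330-5108492 (plus strand). Exons of *sqt-3* share 144 bases with the noncoding RNA gene F23H12.13 on the opposite strand, and those of *bli-1* share 7 bases with *dph-2*. No strand setting is stated for the read assignment, so reads from these short stretches cannot be attributed to a strand.

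Across the 10 collagens, 6 lay above the parent in every mutant library, and the other 4 overlapped with it. In *bli-1*, *bli-2*, *rol-6*, *sqt-1*, *sqt-2* and *sqt-3*, all 8 mutant libraries were above both parent libraries, a pattern that 12.9% of the 14418 tested genes also had. The fold change on the log2(TPM + 1) scale was over 1.5 in all 4 mutants for the same 6 genes, compared with 5.10% of the tested genes. A gene was called when limma's adjusted p-value was below 0.01 and its fold change above 1.5, and 0 of the 10 members were called in any mutant. The share of all tested genes that passed was 0.187% for *mthf-1(ww50)*, 0.0763% for *sams-1(ww51)*, 0.291% for *metr-1(ww52)* and 0.132% for *mtrr-1(ww56)*. When the mean of the 4 mutants was compared with the parent, 0 members and 0.243% of the tested genes passed. All of these comparisons share the same 2 parent libraries.

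The replicate spread was large beside the differences of the 4 Roller genes, whose parent replicates differed 2.73 to 2.88 times. In *bli-2* the parent replicates differed 2.17 times and in *bli-1* 1.54 times, but *bli-1* was at 776 and 148 TPM in *mtrr-1(ww56)*. Without adjustment, limma's p-value was under 0.05 for 4 members that were higher in *mthf-1(ww50)* (8.73% of tested genes were higher at that level), 7 in *metr-1(ww52)* (9.12%), 6 in *sams-1(ww51)* (15.2%) and 6 in *mtrr-1(ww56)* (18.8%). For the mean of the mutants there were 7 such members, against 16.1% of the tested genes. In each of the 5 strains, replicate 1 exceeded replicate 2 for all 6 genes that lay above the parent in every mutant library, which held for 11.4% of the tested genes. With the replicate number added to the model as a block, 5 members (*bli-1*, *bli-2*, *sqt-1*, *sqt-2* and *sqt-3*) passed as higher in *sams-1(ww51)*, where 2.68% of the tested genes passed, and the same 5 in *mtrr-1(ww56)*, where 4.18% passed. For the mean of the mutants, *rol-6* joined them, making 6 members against 3.19% of the tested genes. In *metr-1(ww52)* 0 members passed with the block, against 0.520% of the tested genes, and in *mthf-1(ww50)* 0 members, against 0.305%.

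**Figure D1:**
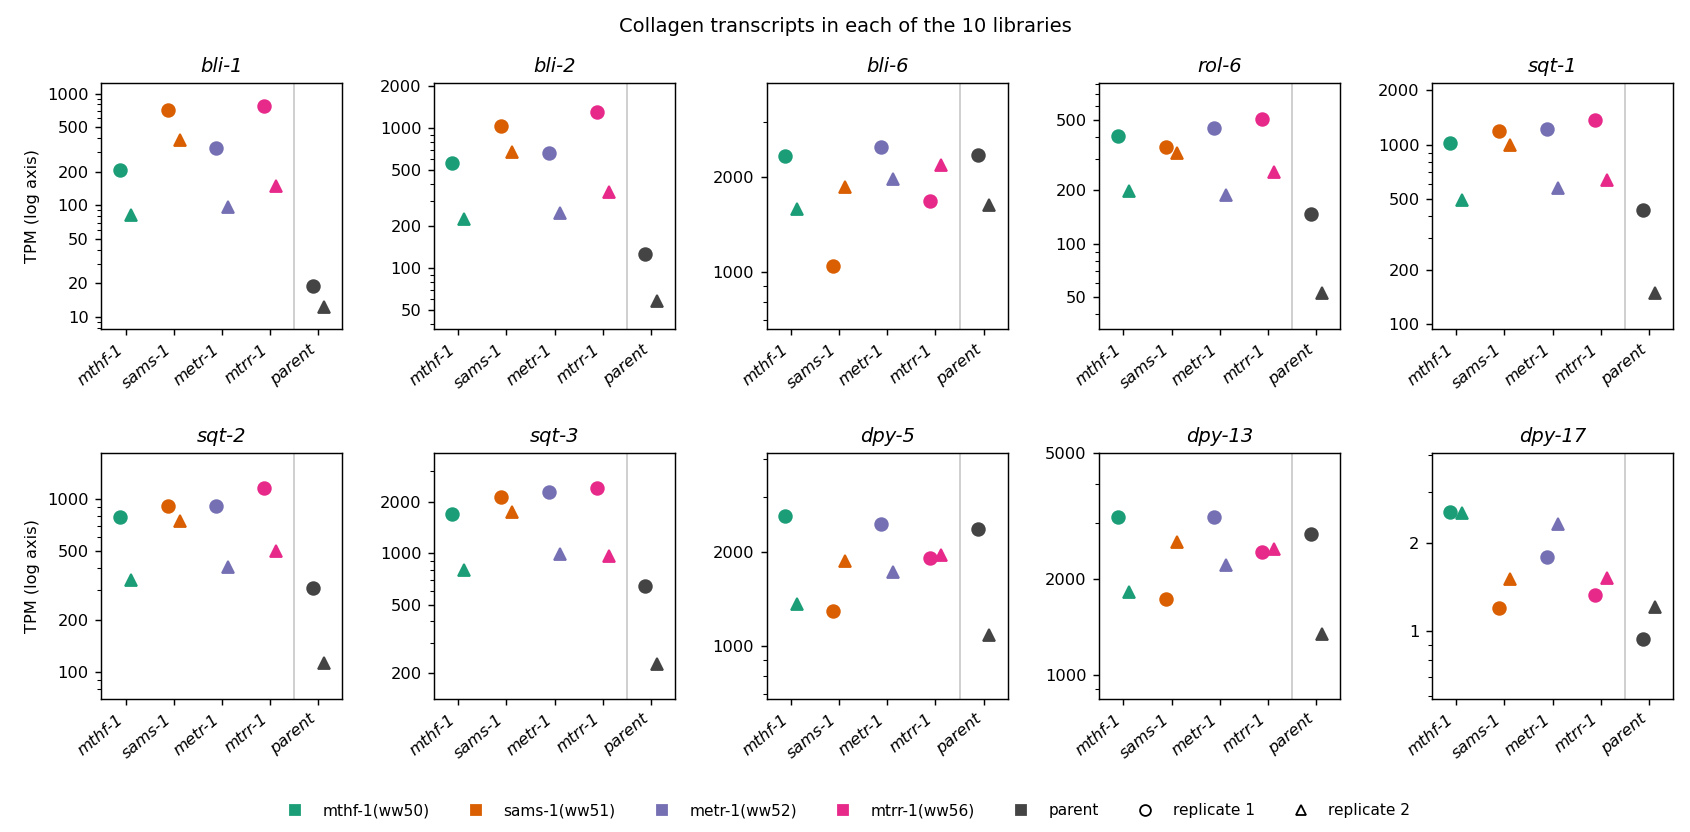
TPM of the 10 collagens (log axis) in each library, with the 4 mutant strains left of the grey line and the parent right of it, replicate 1 as circles and replicate 2 as triangles. In *bli-1*, *bli-2*, *rol-6*, *sqt-1*, *sqt-2* and *sqt-3* all 8 mutant libraries sit above both parent libraries, and in each strain the circle is above the triangle, whereas *bli-6*, *dpy-5*, *dpy-13* and *dpy-17* overlap.

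*bli-1*, which encodes a strut collagen, showed the widest range of the 10 genes. It was measured at 207 and 82.2 TPM in *mthf-1(ww50)*, at 716 and 381 TPM in *sams-1(ww51)*, at 327 and 96.2 TPM in *metr-1(ww52)* and at 776 and 148 TPM in *mtrr-1(ww56)*, against 18.96 and 12.35 TPM in the parent (replicates 1 and 2). The lowest mutant library was thus 4.34 times the highest parent library. Among the mutants, the replicates of *mtrr-1(ww56)* overlapped with those of every other mutant, and those of *metr-1(ww52)* with those of *mthf-1(ww50)*. Both replicates of *sams-1(ww51)* were above those of *metr-1(ww52)* and *mthf-1(ww50)*. The log2 difference was 0.62 for *sams-1(ww51)* over *mtrr-1(ww56)* and 0.44 for *metr-1(ww52)* over *mthf-1(ww50)*, each smaller than its SE of 0.91. For *mtrr-1(ww56)* it was 0.93 over *metr-1(ww52)* and 1.37 over *mthf-1(ww50)* (SE 0.91 each). Over the parent, the log2 fold change of *bli-1* was 3.01 for *mthf-1(ww50)*, 5.003 for *sams-1(ww51)*, 3.45 for *metr-1(ww52)* and 4.38 for *mtrr-1(ww56)* (SE 0.91 each). The limma adjusted p-values were 0.278, 0.0788, 0.198 and 0.0744 in the same order, and 0.0548 for the mean of the mutants (log2 fold change 3.96, SE 0.72). With the replicate block they were 0.0237, 0.00341, 0.0129 and 0.00435, and 0.00292 for the mean.

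*bli-2*, the second strut collagen, followed *bli-1* at a higher level and with a smaller difference. Its values were 559 and 226 TPM in *mthf-1(ww50)*, 1028 and 680 TPM in *sams-1(ww51)*, 663 and 249 TPM in *metr-1(ww52)* and 1308 and 347 TPM in *mtrr-1(ww56)*, against 127 and 58.3 TPM in the parent. The lowest mutant library was 1.78 times the highest parent library, so that the groups were separate. Its log2 fold change was 2.03 for *mthf-1(ww50)*, 3.27 for *sams-1(ww51)*, 2.23 for *metr-1(ww52)* and 2.96 for *mtrr-1(ww56)* (SE 0.80 each). The limma adjusted p-values were 0.392, 0.111, 0.324 and 0.0990, and 0.0938 for the mean of the mutants (log2 fold change 2.62, SE 0.63). The block brought them to 0.0242, 0.00349, 0.0151 and 0.00435, and to 0.00294 for the mean.

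Between libraries with the same replicate number, both genes were higher in all 8 mutant libraries. *bli-1* was 10.9 to 40.9 times the parent in replicate 1 and 6.66 to 30.9 times in replicate 2. *bli-2* was 4.41 to 10.3 times the parent in replicate 1 and 3.87 to 11.7 times in replicate 2. The ratio of *bli-1* to *bli-2* TPM was 0.364 to 0.696 in the mutant libraries and 0.150 to 0.212 in the parent libraries, so the pair did not keep a fixed proportion.

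*bli-6*, also a strut collagen, did not share this pattern. It was abundant in every library, at 2338 and 1578 TPM in *mthf-1(ww50)*, 1045 and 1859 TPM in *sams-1(ww51)*, 2497 and 1981 TPM in *metr-1(ww52)* and 1680 and 2191 TPM in *mtrr-1(ww56)*, against 2363 and 1633 TPM in the parent. The groups overlapped, and replicate 1 of *sams-1(ww51)* was the lowest of the 10 libraries. Its log2 fold changes were −0.032, −0.49, 0.18 and −0.034 in the 4 mutants in the same order (SE 0.34 each), with limma adjusted p-values of 0.491 to 0.978. The 95% interval for the mean of the mutants ran from −0.74 to 0.54 on the log2 scale. Summed over all 3 strut genes, the mutant libraries held 1886 to 3764 TPM and the parent libraries 1703 to 2509 TPM, so that the groups overlapped in this sum. The ratio of *bli-6* to *bli-2* TPM was 1.02 to 7.95 in the mutant libraries and 18.63 to 27.98 in the parent libraries.

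The 4 Roller collagens were higher in all 8 mutant libraries and moved nearly in step. *rol-6*, whose dominant allele is the common injection marker for rolling worms, was the least abundant of them, at 403 and 200 TPM in *mthf-1(ww50)*, 353 and 326 TPM in *sams-1(ww51)*, 448 and 189 TPM in *metr-1(ww52)* and 504 and 254 TPM in *mtrr-1(ww56)*, against 147 and 52.3 TPM in the parent. The lowest mutant library was only 1.29 times the highest parent library, and the parent's own replicates differed 2.80 times. In the 4 mutants the log2 fold change was between 1.68 and 2.02 (SE 0.64), with limma adjusted p-values of 0.128 to 0.380, and 1.84 (SE 0.51) for the mean, with an adjusted p-value of 0.123. With the replicate block *rol-6* passed only for the mean of the mutants, at an adjusted p-value of 0.00784.

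*sqt-1*, a collagen whose alleles produce Squat, Roller or Dumpy animals, was measured at 1018 and 489 TPM in *mthf-1(ww50)*, 1187 and 997 TPM in *sams-1(ww51)*, 1223 and 576 TPM in *metr-1(ww52)* and 1372 and 634 TPM in *mtrr-1(ww56)*, against 430 and 149 TPM in the parent. *sqt-2*, a related Squat and Roller collagen, was measured at 790 and 341 TPM in *mthf-1(ww50)*, 915 and 751 TPM in *sams-1(ww51)*, 905 and 407 TPM in *metr-1(ww52)* and 1156 and 500 TPM in *mtrr-1(ww56)*, against 307 and 112 TPM in the parent. *sqt-3*, an essential collagen whose loss is lethal, was the most abundant of the 4, at 1702 and 803 TPM in *mthf-1(ww50)*, 2123 and 1737 TPM in *sams-1(ww51)*, 2276 and 992 TPM in *metr-1(ww52)* and 2415 and 958 TPM in *mtrr-1(ww56)*, against 644 and 226 TPM in the parent. In each gene the groups were separate, but replicate 2 of *mthf-1(ww50)* lay close to replicate 1 of the parent. The lowest mutant library was 1.14 times the highest parent library for *sqt-1*, 1.11 times for *sqt-2* and 1.25 times for *sqt-3*.

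For *sqt-1* the log2 fold change was 1.47 for *mthf-1(ww50)*, 2.10 for *sams-1(ww51)*, 1.72 for *metr-1(ww52)* and 1.88 for *mtrr-1(ww56)* (SE 0.65 each). That of *sqt-2* was 1.48, 2.15, 1.70 and 2.03 in the same order (SE 0.68), and that of *sqt-3* was 1.61, 2.33, 1.97 and 1.99 (SE 0.70). The limma adjusted p-values of the 3 *sqt* genes were between 0.137 and 0.455 in the single mutants, so none was called. With the replicate block, *sqt-1*, *sqt-2* and *sqt-3* reached 0.00888, 0.00746 and 0.00692 in *sams-1(ww51)*, and 0.00960, 0.00736 and 0.00856 in *mtrr-1(ww56)*. For the mean of the mutants the log2 fold change was 1.79 for *sqt-1*, 1.84 for *sqt-2* and 1.98 for *sqt-3*. Its adjusted p-values were 0.131, 0.135 and 0.125, and 0.00643, 0.00559 and 0.00523 with the block.

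The parent replicates differed in these genes, and replicate 2 of the parent was the lowest library for all 4 of them. Summed over *rol-6*, *sqt-1*, *sqt-2* and *sqt-3*, the mutants were 2.56 to 3.57 times the parent in replicate 1 and 3.39 to 7.05 times in replicate 2. Without replicate 2 of the parent, the 6 separate genes kept a log2 fold change of 0.71 to 2.72 for *mthf-1(ww50)*, 1.205 to 4.713 for *sams-1(ww51)*, 0.96 to 3.16 for *metr-1(ww52)* and 1.12 to 4.09 for *mtrr-1(ww56)*. All 6 remained over 1.5-fold in each mutant, but only 1 or 2 members still had an unadjusted p-value under 0.05.

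**Figure D2:**
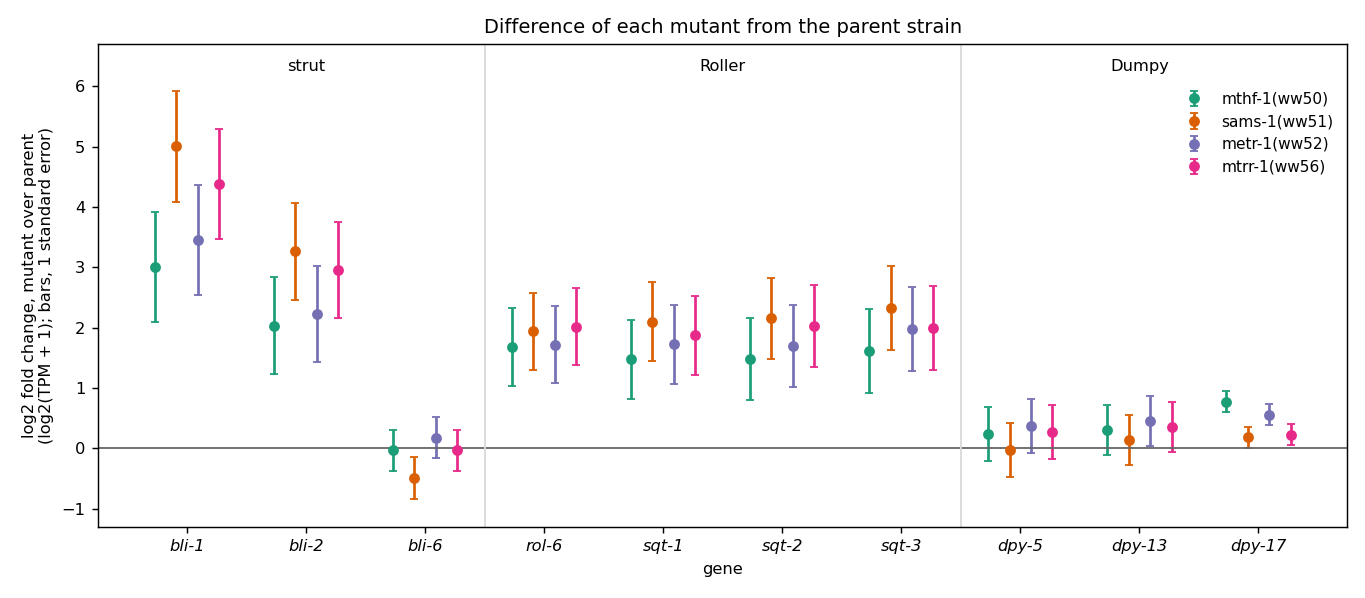
Log2 fold change of each mutant over the parent for the 10 collagens, fitted by limma on log2(TPM + 1), with bars of 1 standard error and the genes grouped as strut, Roller and Dumpy collagens. *bli-1* and *bli-2* lie highest, the 4 Roller genes between 1.47 and 2.33, and *bli-6*, *dpy-5* and *dpy-13* between −0.49 and 0.45.

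The Dumpy collagens *dpy-5* and *dpy-13* were, with *bli-6*, the most abundant members, and neither separated the mutants from the parent. *dpy-5* was measured at 2612 and 1362 TPM in *mthf-1(ww50)*, 1293 and 1877 TPM in *sams-1(ww51)*, 2459 and 1730 TPM in *metr-1(ww52)* and 1914 and 1960 TPM in *mtrr-1(ww56)*, against 2366 and 1077 TPM in the parent. *dpy-13* was measured at 3133 and 1825 TPM in *mthf-1(ww50)*, 1734 and 2615 TPM in *sams-1(ww51)*, 3136 and 2218 TPM in *metr-1(ww52)* and 2435 and 2497 TPM in *mtrr-1(ww56)*, against 2779 and 1342 TPM in the parent. In both genes the lowest library was replicate 2 of the parent, while replicate 1 of the parent exceeded 6 of the 8 mutant libraries. Log2 fold changes ranged from −0.035 to 0.37 for *dpy-5* (SE 0.45) and from 0.14 to 0.45 for *dpy-13* (SE 0.41), with limma adjusted p-values of 0.587 to 0.977. The 95% interval for the mean of the mutants was −0.62 to 1.05 for *dpy-5* and −0.46 to 1.09 for *dpy-13*.

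In *mtrr-1(ww56)* and *sams-1(ww51)*, *dpy-5* and *dpy-13* were below the parent in replicate 1 and above it in replicate 2, whereas in *metr-1(ww52)* and *mthf-1(ww50)* they were above it in both. In replicate 1, *dpy-5* was 0.546 to 1.10 times and *dpy-13* 0.624 to 1.13 times the parent. In replicate 2, *dpy-5* was 1.26 to 1.82 times and *dpy-13* 1.36 to 1.95 times the parent. Both genes were higher in replicate 1 in 3 of the 5 strains, and lower in replicate 1 in *mtrr-1(ww56)* and *sams-1(ww51)*, as was *bli-6*.

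*dpy-17*, a collagen that acts with *sqt-3* in body shape, had the lowest level of the 10 genes. It reached 2.55 and 2.53 TPM in *mthf-1(ww50)*, 1.2 and 1.51 TPM in *sams-1(ww51)*, 1.79 and 2.32 TPM in *metr-1(ww52)* and 1.33 and 1.52 TPM in *mtrr-1(ww56)*, against 0.94 and 1.21 TPM in the parent. Of the 8 mutant libraries 7 lay above both parent libraries, and replicate 1 of *sams-1(ww51)* lay just below the higher of them. In *metr-1(ww52)* its log2 fold change was 0.56 and in *mthf-1(ww50)* 0.77 (SE 0.17 each), with limma adjusted p-values of 0.267 and 0.146. It was 0.18 for *sams-1(ww51)* and 0.23 for *mtrr-1(ww56)*, but −0.019 and −0.061 under quantile normalization. At about 1 to 3 TPM the added pseudocount of 1 understates any difference, and the read number behind these values is not known.

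The 4 mutants could not be ranked by these genes. In the 6 pairwise comparisons between mutants, 0 members were called by limma. Of the tested genes, 0.00694% were called in *sams-1(ww51)* over *mthf-1(ww50)* and over *metr-1(ww52)*, 0.0139% in *metr-1(ww52)* over *mthf-1(ww50)* and in *sams-1(ww51)* over *mtrr-1(ww56)*, 0.0277% in *mtrr-1(ww56)* over *mthf-1(ww50)* and 0.160% in *mtrr-1(ww56)* over *metr-1(ww52)*. At an unadjusted p-value under 0.05, *dpy-17* alone was lower in *sams-1(ww51)* than in *mthf-1(ww50)* (log2 difference −0.59, adjusted p-value 0.337) and lower in *mtrr-1(ww56)* than in *mthf-1(ww50)* (−0.55, adjusted p-value 0.148). Of the tested genes, 12.4% and 22.6% reached that level in either direction in these comparisons. In the other 4 comparisons no member reached it, against 2.42% of the tested genes in *metr-1(ww52)* over *mthf-1(ww50)*, 12.4% in *sams-1(ww51)* over *metr-1(ww52)*, 23.3% in *mtrr-1(ww56)* over *metr-1(ww52)* and 5.58% in *sams-1(ww51)* over *mtrr-1(ww56)*. The largest difference in any member was that of *bli-1* between *sams-1(ww51)* and *mthf-1(ww50)*, at 1.99 on the log2 scale (SE 0.91, 95% interval −0.17 to 4.15, limma adjusted p-value 0.406). For *bli-2* the same comparison gave 1.23 (95% interval −0.66 to 3.12). For the 4 Roller genes the pairwise differences were at most 0.72, and their 95% intervals all lay between −1.63 and 2.36. With 2 libraries per strain, each of these wide intervals held 0 as well as sizeable differences.

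The 10 genes fell into patterns that kept the Roller class together but split the strut and Dumpy classes. Pearson's r of log2(TPM + 1) is given here as a description over 10 libraries that share strains and replicate numbers. Among the 4 Roller genes it was 0.982 to 0.998, and between *bli-1* and *bli-2* it was 0.988. *bli-1* and *bli-2* also tracked the Roller genes, at 0.912 to 0.979. *bli-6*, *dpy-5* and *dpy-13* tracked each other at 0.750 to 0.986, but their r with *bli-1* and *bli-2* was −0.27 to 0.451, and with the Roller genes −0.026 to 0.664. Over the 8 mutant libraries alone, r was 0.934 to 0.995 among the Roller genes and 0.989 between *bli-1* and *bli-2*. Between *bli-1* or *bli-2* and the Roller genes it was 0.834 to 0.972 there. *bli-6*, *dpy-5* and *dpy-13* were at 0.871 to 0.988 there. With the other 9 genes *dpy-17* had an r of 0.110 to 0.248 over the 10 libraries, but of −0.807 to 0.450 over the 8 mutant libraries, so its values depended on the libraries used.

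**Figure D3:**
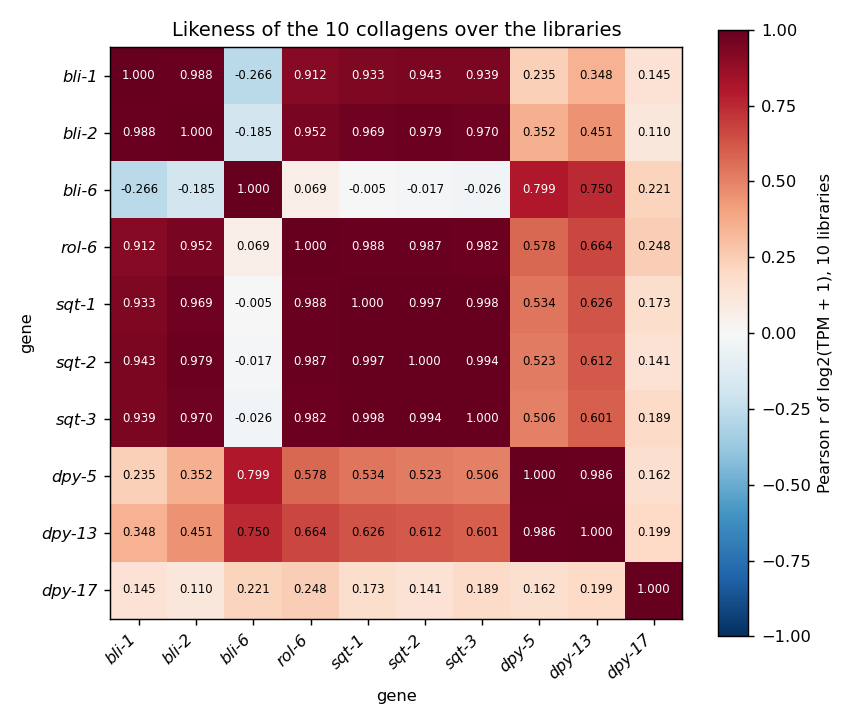
Pearson's r of log2(TPM + 1) between each pair of the 10 collagens over the 10 libraries, with the colour scale running from −1 to 1. *bli-1*, *bli-2* and the 4 Roller genes form a square of values from 0.912 to 0.998, *bli-6*, *dpy-5* and *dpy-13* a second group from 0.750 to 0.986, and *dpy-17* has values of 0.110 to 0.248 with the other 9.

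Within a library, the Roller genes kept close to fixed proportions. The ratio of *sqt-3* to *sqt-1* was 1.51 to 1.86 in the mutant libraries and 1.498 to 1.515 in the parent libraries. The ratio of *sqt-2* to *sqt-1* was 0.696 to 0.843 in the mutant libraries and 0.713 to 0.753 in the parent libraries, and that of *rol-6* to *sqt-1* was 0.297 to 0.408 and 0.341 to 0.350. *dpy-13* and *dpy-5* were equally close, at 1.1997 to 1.393 in the mutant libraries and 1.17 to 1.25 in the parent libraries. Between the patterns the proportions shifted: *sqt-3* over *dpy-13* was 0.384 to 1.22 in the mutant libraries and 0.168 to 0.232 in the parent libraries.

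The tested genes most like each separate member were in part other members. Those nearest to *sqt-1* were *sqt-3* (r = 0.998), *sqt-2* (0.997) and *rol-8* (0.993). Those nearest to *sqt-2* were *rol-8* (0.997), *sqt-1* (0.997) and *dpf-6* (0.995), and those nearest to *sqt-3* were *sqt-1* (0.998), *sqt-2* (0.994) and *rol-8* (0.993). *rol-8*, also named for the rolling phenotype, thus appeared beside all 3 of these genes. Nearest to *rol-6* were Y71G12B.18 (0.991), *sqt-1* (0.988) and the chitinase gene *cht-1* (0.987). Nearest to *bli-1* were *osm-8* (0.999), H03E18.1 (0.998) and H42K12.3 (0.998), and nearest to *bli-2* were Y46G5A.29 (0.997), the collagen *col-110* (0.997) and *glf-1* (0.996), which encodes a UDP-galactopyranose mutase.

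Other cuticle genes were read beside the members, from lists of genes with known roles. Like the 6 separate members and 12.9% of the tested genes, the 6 furrow collagens had all 8 mutant libraries above both parent libraries. In any mutant 0 of these furrow collagens were called. Their median log2 fold change was 3.61 for *mthf-1(ww50)*, 5.77 for *sams-1(ww51)*, 3.10 for *metr-1(ww52)* and 4.89 for *mtrr-1(ww56)*, against a median over all tested genes of 0.118, 0.043, 0.093 and 0.047. For the members the medians were 1.48, 2.02, 1.71 and 1.93. Among the furrow collagens *dpy-3* had the largest mean log2 fold change, 4.83 (SE 0.99, limma adjusted p-value 0.0640), and *dpy-2* the smallest, 4.06 (SE 0.93, adjusted p-value 0.0841).

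The numbered *col* collagens showed the opposite median. Of 117 tested *col* genes, 83 had a negative and 34 a positive log2 fold change in the mean of the mutants, with a median of −0.88, and 0 were called. All 8 mutant libraries were above both parent libraries in 6 of the 117 genes, and below both in 21. The summed TPM of the *col* genes was 18190 to 85277 in the mutant libraries and 88477 to 88479 in the parent libraries. *col-98* had the largest mean log2 fold change, 3.84 (SE 1.12), and *col-119* the smallest, −3.07 (SE 2.27). The 12 genes for collagen processing and crosslinking had a median of −0.076, against 0.068 over all tested genes. They ranged from −0.91 (SE 0.82) in the peroxidase gene *mlt-7* to 0.87 (SE 0.32) in *dpy-31*, which encodes a procollagen C-proteinase, and 0 were called. For the 8 cuticle and epidermal transcription factor genes the median was 0.48, from 0.18 (SE 0.14) in the GATA factor gene *elt-1* to 1.22 (SE 0.39) in the Grainyhead gene *grh-1*, and again 0 were called. In 3 of these 8 genes all mutant libraries were above both parent libraries.

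Molting and adult-onset genes change with age around the last molt, and are given here beside the members. All 11 molting genes had a positive log2 fold change in each mutant, and 0 were called. Their median was 2.93 for the mean of the mutants, against 0.068 over all tested genes. In 9 of the 11, all 8 mutant libraries were above both parent libraries, which held for 12.9% of the tested genes. The molting genes ranged from 0.86 (SE 0.40) in *mlt-8* to 4.49 (SE 0.83) in *noah-2*, which encodes a protein of the apical extracellular matrix. The 8 adult-onset genes, 3 adult collagens and 5 vitellogenins, had a median of −2.25, from −3.58 (SE 1.51) in *vit-3* to −1.01 (SE 1.44) in *vit-2*. Of these genes 0 were called. Their summed TPM was 330 and 4667 in *mthf-1(ww50)*, 1056 and 2754 in *sams-1(ww51)*, 183 and 3027 in *metr-1(ww52)* and 138 and 2532 in *mtrr-1(ww56)*, against 1542 and 5880 in the parent. In this sum, each mutant library was below the parent library of the same number, and replicate 1 was below replicate 2 in all 5 strains. Single genes could differ from the sum. Above the parent library of the same number were *vit-2*, *vit-5* and *vit-6* in replicate 1 of *sams-1(ww51)*, and *vit-4* and *vit-5* in replicate 2 of *mthf-1(ww50)*. The part of stage in the collagen differences was not tested.

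*col-19*, a collagen switched on at the adult molt, gives the level of a single adult gene. It was measured at 100 and 837 TPM in *mthf-1(ww50)*, 1.00 and 160 TPM in *sams-1(ww51)*, 32.6 and 356 TPM in *metr-1(ww52)* and 11 and 629 TPM in *mtrr-1(ww56)*, against 371 and 1162 TPM in the parent. Each mutant library was below the parent library of the same number, and the groups overlapped. Not every adult-onset gene had this pattern. In replicate 1 of *sams-1(ww51)*, *vit-2* was at 496 TPM, *vit-6* at 519 TPM and *vit-5* at 22.85 TPM. Replicate 1 of the parent held 305, 419 and 22.65 TPM of these genes.

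**Figure D4:**
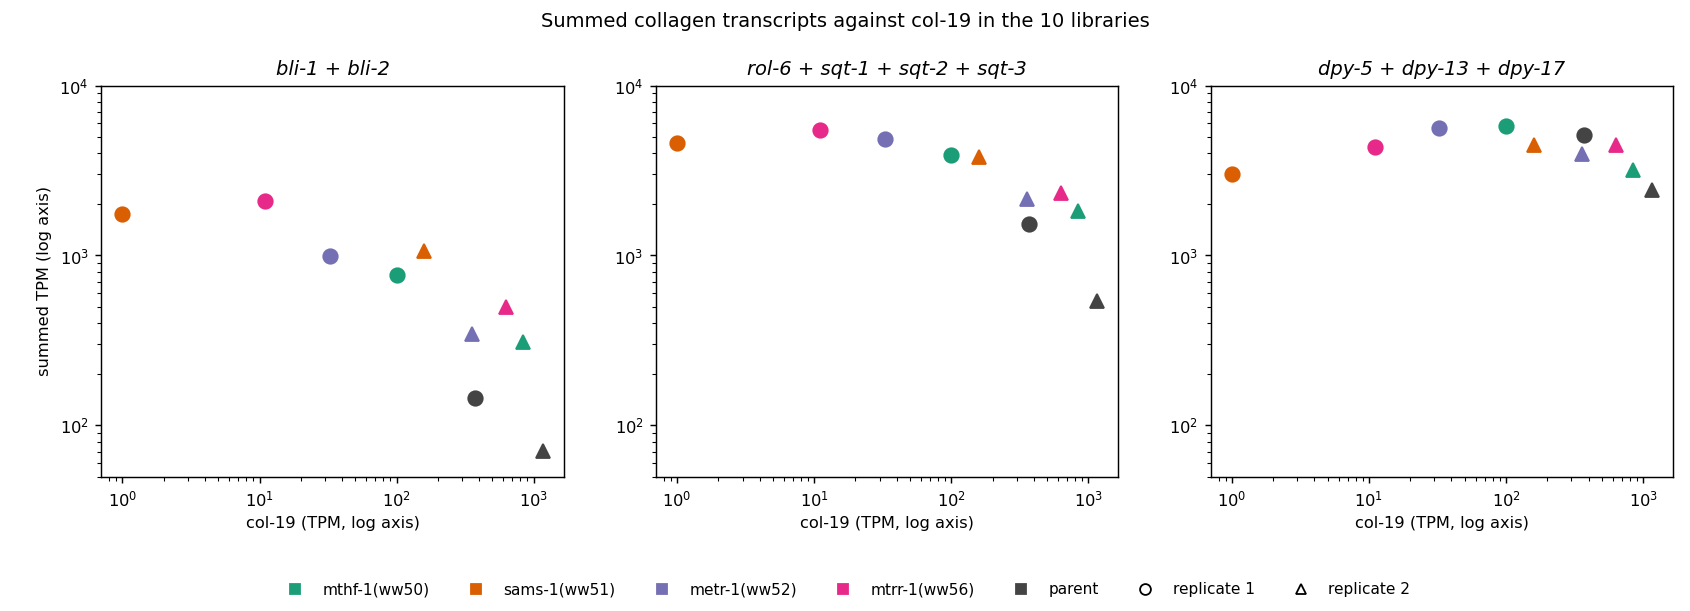
Summed TPM of *bli-1* and *bli-2* (left), of the 4 Roller genes (middle) and of the 3 Dumpy genes (right) against *col-19* TPM in each library, both on log axes, with strains in colours and replicates 1 and 2 as circles and triangles. The parent libraries hold the lowest sums of *bli-1* and *bli-2* and of the Roller genes, the Dumpy sums overlap, and in each strain the circle lies at the lower *col-19* level.

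Whole animals hold all tissues, and fewer cells of a type cannot be told apart from less RNA per cell. The 3 epidermal markers *elt-3*, *lin-26* and *nhr-25* were detected at 1 TPM or more in every library, with a summed level of 60.3 to 79.2 TPM in the mutant libraries and 40.5 to 63.4 TPM in the parent libraries. The markers of intestine, body wall muscle, pharynx, neurons, germline, oocytes and sperm were likewise at 1 TPM or more in every library, and none was at 0. The summed level of the 3 neuron markers was 259 to 344 TPM in the mutant libraries and 220 to 222 TPM in the parent libraries, so that the groups were separate, as they were for the 6 collagens. For each of the other lists the groups overlapped, with the widest range in the oocyte markers, at 28.2 to 307 TPM in the mutant libraries and 105 to 261 TPM in the parent libraries. The part of these markers in the result was not tested. *acdh-1*, which drives the reporter, was at 20.9 to 477 TPM in the mutant libraries and at 0.05 to 0.18 TPM in the parent libraries. In *mthf-1(ww50)* the median tested gene lay 0.118 above the parent on the log2 scale, and 0.0038 above it under quantile normalization. Relative to that median, the 6 separate collagens lay 1.36 to 2.89 higher.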

How the data were processed

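RNA of whole animals was sequenced as 100 bp paired-end reads on the BGISEQ-500. The authors aligned reads to the WormBase WS271 genome using bowtie2 and quantified TPM using RSEM, each with default settings. They deposited the TPM values of 46903 genes in 10 libraries, rounded to 2 decimals. TPM keeps no depth, so counting errors are unknown. DESeq2 and R 3.6.3 are listed in the submitters' processing notes.

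Values were taken as log2(TPM + 1), and genes averaging 1 TPM or more were fitted over all 10 libraries with limma 3.58.1 under R 4.3.3, with one mean per strain, a mean-variance trend and two-sided tests. The Benjamini-Hochberg adjustment covered all 14418 genes. Genes were called at adjusted p-values below 0.01 with fold changes above 1.5. For the members, a log2 fold change within 1 SE of 0 was given no direction, while signs in the gene lists were counted regardless of SE. The fitting was tested on simulated data. The labels name biological duplicates without saying whether cultures were separate, so p-values measure the spread between these samples, which may be technical. Libraries with equal replicate numbers deviated together in all 10 pairs of strains (r across genes 0.166 to 0.736), although no label says that they were grown together. Adjusted p-values with the block are therefore given where it changed a call, and for *bli-1* and *bli-2* in every mutant.

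The fits were repeated with each library left out, the replicate block, pairs of strains fitted alone, median-ratio or quantile scaling, a pseudocount of 0.1, a filter at 5 TPM or none, no trend, limma's treat at 1.5-fold and an adjusted p-value of 0.05. Named genes are the 10 members, the 3 genes with the highest r for each separate member, and the genes with the largest and smallest mean change of each list. *acdh-1* and *rol-8*'s recurrence were described after their values were seen, and *col-19* was singled out as an adult marker. Members and lists were chosen with earlier results of these data known. Positions are from the WBcel235 annotation and were used for description only. Planned protein and promoter sequences were not used here. Python 3.11.15 with pandas 2.3.3 and matplotlib 3.10.9 made the tables and figures.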

Additional observations from a re-analysis of the deposited data

How the results depend on the processing

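With the replicate number as a block, 5 members were called in *sams-1(ww51)*, 5 in *mtrr-1(ww56)* and 6 in the mean of the mutants, in place of 0. This pairing changed no other call. Under the other alternatives 0 members were called in any comparison fitted: all 11 for most, 10 when pairs of strains were fitted alone, and 5 for each library left out. The 5 TPM filter removed *dpy-17*. Over 1579 single values, 1473 kept their sign and their side of the threshold, 16 passed it only with the block, and 90 changed sign, 81 of them with a library left out. None of the 90 was one of the 6 separate members against the parent. In 26 it was *bli-6* or a Dumpy gene against the parent, and in 64 a comparison between mutants. In 85 the reported value was within 1 SE of 0, and in 5 it was beyond. Of these 5, *dpy-17* moved to −0.019 in *sams-1(ww51)* and to −0.061 in *mtrr-1(ww56)* under quantile normalization; the cause was not tested. When libraries were left out in turn, *dpy-13* in *metr-1(ww52)* ranged from −0.075 to 0.97, *bli-2* in *mtrr-1(ww56)* over *mthf-1(ww50)* from −0.032 to 1.88, and *bli-1* in *mtrr-1(ww56)* over *metr-1(ww52)* from −0.26 to 2.12. The lowest values came without replicate 2 of the parent for *dpy-13* and without replicate 1 of *mtrr-1(ww56)* for the others. The number of members with an unadjusted p-value under 0.05 fell to 1 or 2 without replicate 2 of the parent in every comparison with it, and likewise without replicate 1 of the single mutant compared. Depth is unknown, which limits *dpy-17* most.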
